A study of Homo sapiens with 9 samples.

Results

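RNA levels of 10 genes that act in the joining of broken DNA ends were examined across the 9 RNA-seq libraries of this study. The genes were chosen by name: XRCC5, XRCC6, PRKDC, DCLRE1C, LIG4, XRCC4, NHEJ1, TP53BP1, RIF1 and POLQ, out of 58735 genes in the deposited table. All 10 were listed in the table, and 9 of them were among the 16350 genes that had enough counts to be tested. NHEJ1 was the exception. The libraries came from SKOV3, a human epithelial ovarian cancer cell line, in 3 groups of 3. The first group expressed WT CDK9 under basal conditions. The second expressed WT CDK9 and received an ALK inhibitor for 24 h, without the compound or its dose being given for this experiment. The third expressed Y19F-CDK9 (Tyr19Phe CDK9), in which tyrosine 19, studied as a site that ALK phosphorylates, is replaced by phenylalanine, which cannot be phosphorylated. The labels do not say whether endogenous CDK9 was removed in these lines, how many clones stand behind each line, or whether the replicates were separate cultures, so that p-values here measure the spread between these libraries only.

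A double-strand break can be repaired by copying an intact sister sequence, which is homologous recombination, or by joining the ends directly. In classical non-homologous end joining, the ring formed by XRCC6 (Ku70) and XRCC5 (Ku80) slides onto each end and recruits PRKDC, the catalytic subunit of the DNA-dependent protein kinase. DCLRE1C (Artemis) trims ends that cannot be joined, and the ligase LIG4 seals them together with its partner XRCC4 and the bridging factor NHEJ1 (XLF). TP53BP1 (53BP1) and its effector RIF1 protect ends from resection, the step that commits a break to recombination. POLQ (polymerase theta) joins resected ends through short stretches of homology, and cells with defective recombination depend on it.

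Total counts per library were between 18169050 and 20974903 in WT CDK9 cells with and without the ALK inhibitor and between 26485891 and 29320184 in Tyr19Phe CDK9 cells. ALK inhibitor replicate 2 had the lowest number of genes with at least 1 count (19944), and every test across genes was run again without each library in turn. The epithelial and ovarian markers KRT7, KRT8, KRT18, KRT19, EPCAM, PAX8, WT1, MUC16, CDH1 and ERBB2 were looked up as a check of the cell line, and 6 of these 10 exceeded 10 CPM (counts per 1000000 of the scaled library total) in every library. CDH1, MUC16 and WT1 stayed low, and EPCAM fell short in 1 Tyr19Phe CDK9 library (9.70 CPM). The marker levels were not alike in the groups. Without overlap with the WT CDK9 libraries, KRT8 (1675 to 1724 against 1259 to 1377 CPM) and KRT18 (170.0 to 184 against 129 to 144 CPM) lay higher with Tyr19Phe CDK9, while KRT7 (1472 to 1553 against 1555 to 1682 CPM), KRT19 (99.8 to 112 against 229 to 264 CPM), EPCAM (9.70 to 13.5 against 20.2 to 23.0 CPM) and ERBB2 (1379 to 1514 against 1767 to 1856 CPM) lay lower. With the inhibitor, ERBB2 (2614 to 2631 CPM) and KRT19 (266 to 305 CPM) lay higher and KRT7 lower (1217 to 1316 CPM). The part of these differences in the results below was not tested. The 7 leukocyte and endothelial markers had at most 35 counts in any library. CDK9 itself had 891 to 944 counts in WT CDK9 cells, 861 to 922 with the inhibitor and 1493 to 1578 with Tyr19Phe CDK9. Its log2 fold change was -0.09 for the inhibitor (edgeR adjusted p = 0.666) and 0.18 for Tyr19Phe CDK9 (adjusted p = 0.106), and it was higher with Tyr19Phe CDK9 than with the inhibitor (0.27 ± 0.08 on the log2 scale, adjusted p = 0.00961). These counts do not separate the introduced from the endogenous gene.

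Each pair of groups was compared, and differences are given as log2 fold changes ± SE. With the ALK inhibitor, 1 of the 9 tested end joining genes was called lower than in WT CDK9 cells and none was called higher, at an adjusted p under 0.05 in edgeR's quasi-likelihood test, where 4.55% of all tested genes were called (2.73% lower and 1.82% higher). The gene was PRKDC. At an unadjusted p under 0.05 there were 3 genes, PRKDC, RIF1 and TP53BP1, against 15.1% of all tested genes. In Tyr19Phe CDK9 cells, 1 gene was lower (PRKDC) and 1 higher (XRCC6) than in WT CDK9 cells, where 18.0% of all tested genes were called (10.4% lower and 7.61% higher). An unadjusted p under 0.05 was reached by 3 genes, the third being XRCC5, against 29.0% of all. Directly between Tyr19Phe CDK9 and inhibitor-treated cells, 2 genes were lower (PRKDC and TP53BP1) and 1 was higher (XRCC6), against 20.7% of all tested genes (11.1% lower and 9.57% higher). DCLRE1C joined them at an unadjusted p under 0.05, making 4 genes, against 31.5% of all. The 9 genes had median log2 fold changes close to that of all tested genes, at -0.07 for the inhibitor and -0.08 for Tyr19Phe CDK9, and their median absolute log2 fold changes (0.09 and 0.15) were below those of all tested genes (0.13 and 0.18). The libraries of the compared groups did not overlap for 3 of 9 genes with the inhibitor, against 19.6% of all tested genes. They did not overlap for 5 of 9 with Tyr19Phe CDK9, against 32.6%, nor for 5 of 9 in the direct comparison, against 34.4%. The first 2 comparisons share the WT CDK9 libraries.

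**Figure D1:**
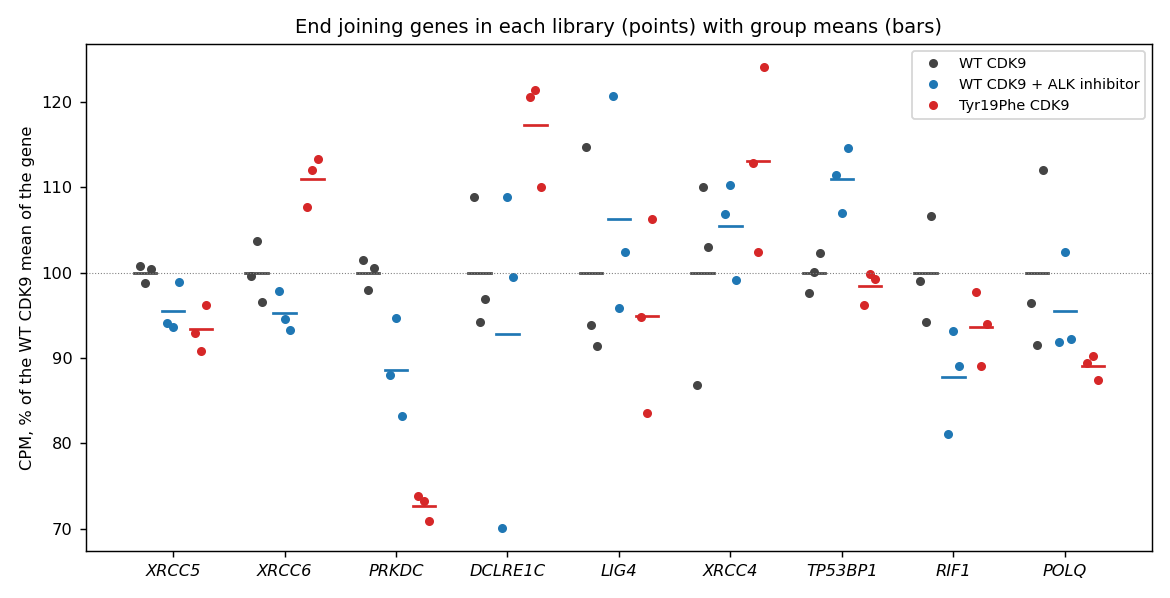
CPM of the 9 tested end joining genes in each library, as a percentage of the gene's mean in WT CDK9 cells (points, left to right replicates 1 to 3; bars, group means). PRKDC lies lowest in the Tyr19Phe CDK9 libraries and XRCC6 highest, while the TP53BP1 libraries with the ALK inhibitor lie above those of both other groups.

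**Figure D2:**
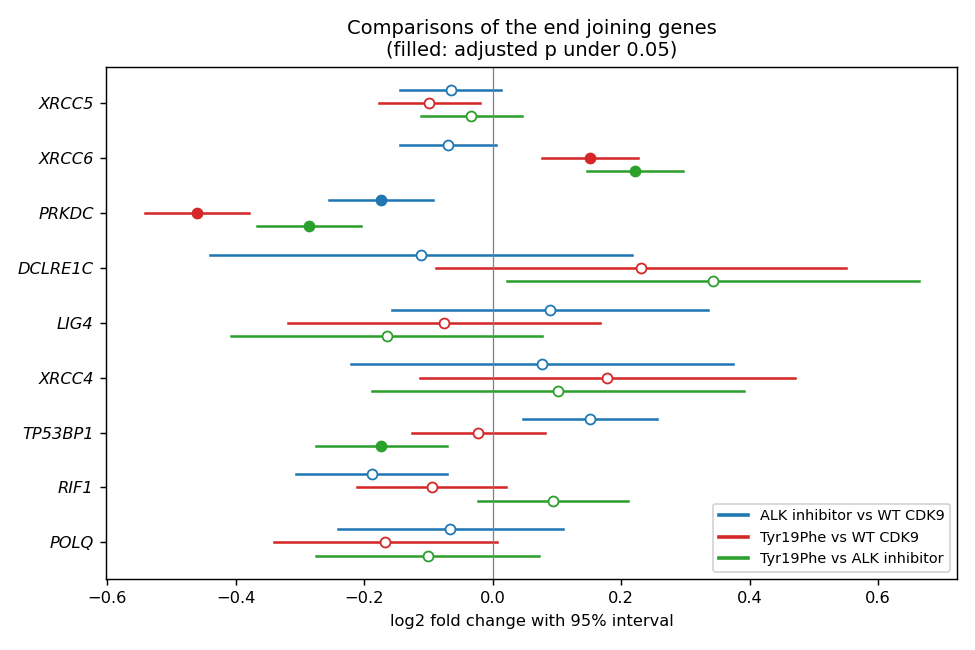
log2 fold changes of the 9 tested genes in the 3 comparisons, with 95% intervals from the joint fit. Filled points have an adjusted p under 0.05, and the intervals of DCLRE1C, LIG4 and XRCC4 are the widest.

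Since the counts of a gene grow with its length, levels were compared between genes as CPM per kilobase of the length given in the table. In WT CDK9 cells the Ku genes led, with 200.4 ± 7.19 CPM per kilobase for XRCC6 and 81.2 ± 0.88 for XRCC5 (SD, n = 3). PRKDC followed with 47.4 ± 0.88 CPM per kilobase (SD, n = 3). TP53BP1 had 10.2 ± 0.24 and RIF1 8.28 ± 0.52 CPM per kilobase (SD, n = 3). The lowest were LIG4 with 5.19 ± 0.66, POLQ with 4.80 ± 0.51, XRCC4 with 4.28 ± 0.51 and DCLRE1C with 1.69 ± 0.13 CPM per kilobase (SD, n = 3). The libraries of LIG4 and POLQ, and those of POLQ and XRCC4, overlapped, and all other neighbours in this order were separate. The RNA of the break sensor was therefore far more abundant than that of the ligation complex in these cells. With the length of the canonical transcript in GENCODE 44, XRCC4 (7.15 CPM per kilobase) came before LIG4 (5.72) and POLQ (5.15), so the order of these 3 rests on the length used. With the lengths of the table, the ALK inhibitor libraries gave the same order of means. In Tyr19Phe CDK9 cells XRCC4 (4.84 ± 0.46 CPM per kilobase) lay above POLQ (4.27 ± 0.07, SD, n = 3), with libraries that did not overlap.

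The 2 Ku genes encode the subunits of one ring, and they differed in Tyr19Phe CDK9 cells. XRCC6 (ENSG00000196419, chromosome 22 from 41621119 to 41664048, plus strand) had 657, 684 and 637 CPM in the WT CDK9 libraries. It had 645, 623 and 615 CPM with the ALK inhibitor and 710, 738 and 747 CPM with Tyr19Phe CDK9. All 3 Tyr19Phe CDK9 libraries were above every other library. The rise over WT CDK9 cells was 11.0% (0.15 ± 0.04 on the log2 scale, edgeR adjusted p = 0.00307), and it was called in 6 of 6 fits that left out 1 library. Against inhibitor-treated cells the log2 fold change was 0.22 ± 0.04 (edgeR adjusted p = 2.82e-05). With the inhibitor, it was -0.07 relative to WT CDK9 cells (95% interval -0.14 to 0.01, adjusted p = 0.379). Of XRCC6 copies that could share its reads, 5 pseudogenes were listed, with at most 5 counts in a library.

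Of 159 tested genes that start within 5 Mb of XRCC6, 44 were called higher and 3 lower with Tyr19Phe CDK9, where 7.61% of all tested genes were called higher and 10.4% lower. The log2 fold change was below 0 for 32 of them, and their median log2 fold change was 0.21, above that of XRCC6. Their part in the difference of XRCC6 was not tested.

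XRCC5 (ENSG00000079246, chromosome 2 from 216107464 to 216206303, plus strand) did not rise with its partner. It had 447, 438 and 446 CPM in WT CDK9 cells, 418, 416 and 439 CPM with the ALK inhibitor and 413, 403 and 427 CPM with Tyr19Phe CDK9. The Tyr19Phe CDK9 libraries were all below the WT CDK9 libraries, by less than the test required. Its log2 fold change was -0.10 (SE 0.04, 95% interval -0.18 to -0.02, edgeR adjusted p = 0.0728), and DESeq2 called it (adjusted p = 0.0307). With the inhibitor it was -0.07 (95% interval -0.14 to 0.01, adjusted p = 0.464).

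The ratio of XRCC6 to XRCC5 counts, in which the scaling of a library cancels, was 1.47, 1.56 and 1.43 in the WT CDK9 libraries and 1.54, 1.5 and 1.4 with the ALK inhibitor. It was 1.72, 1.83 and 1.75 with Tyr19Phe CDK9, all above the other 6 libraries. The mean ratio was 1.19 times that of WT CDK9 cells. The two-sided exact permutation test of 3 against 3 libraries gave p = 0.1, the smallest it can give. In all, 5 ratios were tested in 3 comparisons each, and a p of 0.1 became 0.136 after Benjamini-Hochberg adjustment over these 15 tests. The ratios were chosen after the values had been seen.

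PRKDC (ENSG00000253729, chromosome 8 from 47773108 to 47960183, minus strand) had, of the 10 chosen genes, the largest called log2 fold change from WT CDK9 cells. It encodes the kinase that is activated once Ku holds a DNA end. It had 742, 716 and 735 CPM in WT CDK9 cells, 644, 692 and 608 CPM with the ALK inhibitor and 540, 535 and 518 CPM with Tyr19Phe CDK9. The 3 groups did not overlap, with WT CDK9 cells highest and Tyr19Phe CDK9 cells lowest. In Tyr19Phe CDK9 cells its RNA fell by 27.3% (-0.46 ± 0.04 on the log2 scale, edgeR adjusted p = 2.19e-10), and it was called in 6 of 6 fits without 1 library (adjusted p up to 4.45e-08). With the inhibitor it fell by 11.4% (-0.17 ± 0.04 on the log2 scale, edgeR adjusted p = 0.00569). That call was lost without WT CDK9 replicate 1 (log2 fold change -0.16, adjusted p = 0.0566) and without ALK inhibitor replicate 3 (log2 fold change -0.13, adjusted p = 0.0899). PRKDC was lower with Tyr19Phe CDK9 than with the inhibitor, with a log2 fold change of -0.29 ± 0.04 (edgeR adjusted p = 1.79e-06).

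The neighbourhood of PRKDC was read in the same way as that of XRCC6. The 17 tested genes that start within 5 Mb had a median of -0.07 (log2) with Tyr19Phe CDK9 and of -0.01 with the inhibitor. With Tyr19Phe CDK9, 1 of them was called lower and 2 higher, where 10.4% of all tested genes were called lower and 7.61% higher. Their part in the difference of PRKDC was not tested. MCM4, a subunit of the replicative helicase, begins after a gap of 1 base beyond the end of PRKDC and is transcribed away from it. Its log2 fold change was -0.08 ± 0.04 with Tyr19Phe CDK9 (edgeR adjusted p = 0.221) and -0.04 with the inhibitor (SE 0.04, edgeR adjusted p = 0.777). Counts of PRKDC were 2.19, 2.20 and 2.13 times those of MCM4 in WT CDK9 cells, 1.95, 2.07 and 1.90 times with the inhibitor and 1.67, 1.74 and 1.58 times with Tyr19Phe CDK9. These ratios did not overlap between the groups, and each pair of groups gave an exact permutation p of 0.1, the smallest possible. MCM4 was chosen for its position after the values of PRKDC had been seen.

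The ratio of XRCC6 to PRKDC counts differed most of the 5 ratios. It was 0.885, 0.955 and 0.867 in WT CDK9 cells and 1.00, 0.901 and 1.01 with the ALK inhibitor, which overlapped. With Tyr19Phe CDK9 it was 1.32, 1.38 and 1.44, a mean 1.53 times that of WT CDK9 cells (exact permutation p = 0.1, the smallest possible). Of the RNAs for the 3 subunits of the DNA-dependent protein kinase, XRCC6 thus rose in Tyr19Phe CDK9 cells, PRKDC fell and XRCC5 did not pass the test.

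**Figure D3:**
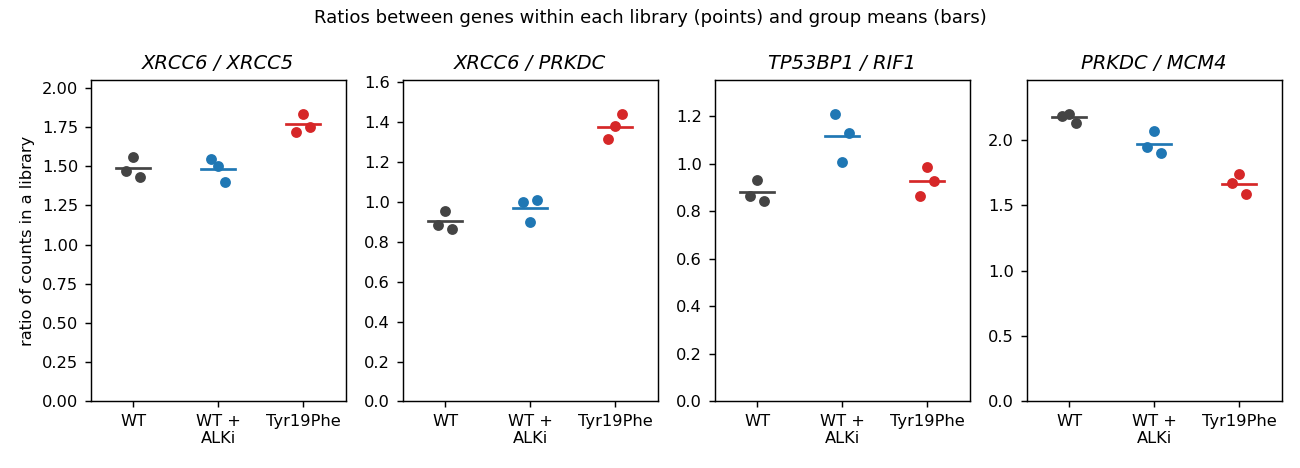
Ratios of counts between genes within each library (points) and group means (bars), on linear axes that start at 0. The XRCC6 to XRCC5 ratio lies above 1.7 in the Tyr19Phe CDK9 libraries and below 1.6 elsewhere, the PRKDC to MCM4 ratio steps down over the 3 groups, and the TP53BP1 to RIF1 ratio is highest with the ALK inhibitor.

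DCLRE1C (ENSG00000152457, chromosome 10 from 14897359 to 14954432, minus strand) had the lowest level per kilobase of the tested genes. It had 227, 191 and 194 counts in WT CDK9 cells, or 11.6, 10.1 and 10.4 CPM. It had 7.49, 11.6 and 10.6 CPM with the ALK inhibitor and 12.9, 12.98 and 11.8 CPM with Tyr19Phe CDK9. The Tyr19Phe CDK9 libraries were above all others, yet the intervals were wide. The log2 fold change was 0.23 with Tyr19Phe CDK9 (95% interval -0.09 to 0.55, adjusted p = 0.359) and -0.11 with the inhibitor (95% interval -0.44 to 0.22, adjusted p = 0.841). For the surrounding 47 tested genes the median was 0.30 on the log2 scale with Tyr19Phe CDK9. Of them, 15 were called higher and 2 lower, where 7.61% of all tested genes were called higher and 10.4% lower. Their part in the values of DCLRE1C was not tested. Around the other 6 tested genes, XRCC5, LIG4, XRCC4, TP53BP1, RIF1 and POLQ, the corresponding median with Tyr19Phe CDK9 was between -0.13 and 0.09.

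The ligation complex did not pass the test in any comparison. LIG4 (ENSG00000174405, chromosome 13 from 108207439 to 108218368, minus strand) had 26.1, 21.4 and 20.8 CPM in WT CDK9 cells, 27.5, 21.8 and 23.3 CPM with the ALK inhibitor and 21.6, 19.1 and 24.2 CPM with Tyr19Phe CDK9. The groups overlapped. The 95% interval of its log2 fold change ran from -0.16 to 0.34 for the inhibitor and from -0.32 to 0.17 for Tyr19Phe CDK9 (adjusted p = 0.827 and 0.742). XRCC4 (ENSG00000152422, chromosome 5 from 83077498 to 83353787, plus strand), which stabilises LIG4, had 9.94, 12.6 and 11.8 CPM in WT CDK9 cells, 12.2, 12.6 and 11.4 CPM with the inhibitor and 12.9, 11.7 and 14.2 CPM with Tyr19Phe CDK9. Its groups overlapped too. The interval was -0.22 to 0.37 with the inhibitor and -0.11 to 0.47 with Tyr19Phe CDK9 (adjusted p = 0.887 and 0.454). Changes of about the size seen for PRKDC with the inhibitor would lie inside all 4 intervals in at least one direction.

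NHEJ1 (ENSG00000187736, chromosome 2 from 219075317 to 219160865, minus strand) could not be measured in this table. It had 0, 2 and 5 counts in WT CDK9 cells, 0 in each ALK inhibitor library and 7, 7 and 12 counts with Tyr19Phe CDK9. An entry named AC068946.1 (ENSG00000280537) covers 99.99% of its span on the same strand and had 1 to 23 counts per library. In GENCODE 44, the 2 genes share 2034 exon bases, 19.5% of the 10442 exon bases of NHEJ1 there. The deposited table lists a length of 3109 bases for NHEJ1, and the shared part of that length is not known. Whether reads that fit both genes were counted is not given in the sources used here, so the level of NHEJ1 is uncertain and no fold change is given.

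The 2 end protection genes differed in opposite directions with the ALK inhibitor, neither past the threshold in edgeR. TP53BP1 (ENSG00000067369, chromosome 15 from 43403061 to 43510728, minus strand) binds modified chromatin beside a break. It had 129, 132 and 135 CPM in WT CDK9 cells, 147, 141 and 151 CPM with the ALK inhibitor and 127, 132 and 131 CPM with Tyr19Phe CDK9. The inhibitor libraries were above all 6 others. For the inhibitor the log2 fold change was 0.15 (SE 0.05, 95% interval 0.05 to 0.25, edgeR adjusted p = 0.0941), which did not pass, and DESeq2 called it (adjusted p = 0.0352). With Tyr19Phe CDK9 it was -0.02 (95% interval -0.13 to 0.08, adjusted p = 0.831). The direct comparison of the 2 conditions passed the test, with TP53BP1 lower by 11.3% in Tyr19Phe CDK9 cells than with the inhibitor (-0.17 ± 0.05 on the log2 scale, edgeR adjusted p = 0.0121). That call was lost without ALK inhibitor replicate 3 (log2 fold change -0.15, adjusted p = 0.0738). TUBGCP4 on the opposite strand shares 3732 exon bases with TP53BP1, 28.8% of its exon bases in GENCODE 44, and differed from WT CDK9 cells by -0.05 (inhibitor) and 0.02 (Tyr19Phe CDK9) on the log2 scale (adjusted p = 0.819 and 0.895). The strand setting of the counting is not given in the sources used here.

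RIF1 (ENSG00000080345, chromosome 2 from 151409883 to 151508013, plus strand) binds phosphorylated TP53BP1 at breaks. It had 149, 141.9 and 161 CPM in WT CDK9 cells, 122, 140.3 and 134 CPM with the ALK inhibitor and 147, 134 and 141 CPM with Tyr19Phe CDK9. The inhibitor libraries lay below those of WT CDK9 cells, the nearest pair being 140.3 and 141.9 CPM. The log2 fold change was -0.19 ± 0.06 with the inhibitor (95% interval -0.31 to -0.07, edgeR adjusted p = 0.0554). It stood at the edge of the threshold: DESeq2 called it (adjusted p = 0.0477), and it was called without WT CDK9 replicate 2 (adjusted p = 0.0306) or ALK inhibitor replicate 2 (adjusted p = 0.0393), while the other 4 fits without 1 library gave up to 0.342. With Tyr19Phe CDK9 it was -0.09 (95% interval -0.21 to 0.02, adjusted p = 0.285). The ratio of TP53BP1 to RIF1 counts was 0.866, 0.933 and 0.842 in WT CDK9 cells, 1.21, 1.01 and 1.13 in ALK inhibitor-treated cells and 0.865, 0.985 and 0.927 with Tyr19Phe CDK9. Only the inhibitor libraries exceeded 1, and their mean was 1.27 times that of WT CDK9 cells (exact permutation p = 0.1, the smallest possible).

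Of the genes with an entry in the RefSeq table for GRCh38.p14, XRCC6 and TP53BP1 were called by edgeR in a comparison. RIF1 was called in none and was added for its ratio with TP53BP1 under the inhibitor. That ratio was chosen after the values were seen (exact permutation p = 0.1, adjusted p = 0.136). The stretches around the start sites of these 3 genes are shown. Each runs from 250 bases before to 50 bases after a RefSeq start, 5′ to 3′ on the strand of the gene. Windows were found for 8 of the 10 genes, PRKDC and XRCC5 being the others. Capitals mark matches on either strand to motifs of proximal promoters. The GC box was searched as GGGCGG, the binding letters of NF-Y as CCAAT, and part of the cyclic AMP response element as TGACGT. The ETS core was searched as CCGGAAG, and the cell cycle homology region as TTTGAA. The positions are chr22:41621045-41621344 (plus strand), chr15:43510591-43510890 (minus strand) and chr2:151409652-151409951 (plus strand).
XRCC6: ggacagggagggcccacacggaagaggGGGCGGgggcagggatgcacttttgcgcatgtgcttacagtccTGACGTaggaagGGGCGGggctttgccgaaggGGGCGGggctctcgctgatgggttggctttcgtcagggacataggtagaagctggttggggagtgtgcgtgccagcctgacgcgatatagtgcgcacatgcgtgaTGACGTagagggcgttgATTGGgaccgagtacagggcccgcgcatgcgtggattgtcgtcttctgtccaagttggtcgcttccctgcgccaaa
TP53BP1: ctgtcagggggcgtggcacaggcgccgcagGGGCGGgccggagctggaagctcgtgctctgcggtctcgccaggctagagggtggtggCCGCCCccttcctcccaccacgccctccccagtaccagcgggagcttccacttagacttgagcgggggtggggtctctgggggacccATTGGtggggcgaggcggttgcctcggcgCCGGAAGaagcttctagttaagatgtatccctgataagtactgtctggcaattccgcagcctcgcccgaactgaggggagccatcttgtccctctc
RIF1: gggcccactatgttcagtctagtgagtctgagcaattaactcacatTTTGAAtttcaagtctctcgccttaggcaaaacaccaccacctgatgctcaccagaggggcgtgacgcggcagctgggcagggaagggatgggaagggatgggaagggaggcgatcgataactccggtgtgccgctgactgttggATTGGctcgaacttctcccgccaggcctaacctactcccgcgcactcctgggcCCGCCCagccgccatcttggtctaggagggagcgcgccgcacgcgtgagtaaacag

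The XRCC6 window held 3 GC boxes, 2 matches to part of the cyclic AMP response element and 1 CCAAT box. The TP53BP1 window held 2 GC boxes, 1 CCAAT box and 1 ETS core. In the RIF1 window there were 1 GC box, 1 CCAAT box and 1 cell cycle homology region. Each of the 3 thus had a GC box and a CCAAT box. The windows of XRCC4 and DCLRE1C also held both, while no window of LIG4, NHEJ1 or POLQ did. Of the genes with a window, edgeR called only XRCC6 and TP53BP1 in any comparison, so RIF1, XRCC4 and DCLRE1C held both without a call. These motifs are common: 45.0% of all 35116 RefSeq windows of this length held a GC box and 34.6% a CCAAT box. The letters from the cyclic AMP response element occurred in 7.98%, the ETS core in 10.3% and the cell cycle homology region in 15.2%. The matches describe letters only, since no binding was measured, and the motifs were chosen with the values known.

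POLQ (ENSG00000051341, chromosome 3 from 121431427 to 121546641, minus strand) had 43.5, 41.3 and 50.6 CPM in WT CDK9 cells, 41.5, 46.2 and 41.7 CPM with the ALK inhibitor and 40.4, 40.7 and 39.5 CPM with Tyr19Phe CDK9. The Tyr19Phe CDK9 libraries lay below all others, closely grouped, and the inhibitor libraries overlapped with those of WT CDK9 cells. With Tyr19Phe CDK9 its RNA differed by -0.17 on the log2 scale (SE 0.09, 95% interval -0.34 to 0.01, edgeR adjusted p = 0.191) and by -0.07 with the inhibitor (95% interval -0.24 to 0.11, adjusted p = 0.817). POLQ is expressed mainly in dividing cells, so a list of 43 S phase genes was read beside it. Their median log2 fold change was -0.09 under the inhibitor, where 4 were called lower (9.30%, against 4.55% of all tested genes). It was -0.05 for Tyr19Phe CDK9, with 6 called lower and 3 higher (20.9%, against 18.0% of all tested genes). A list of 54 G2/M genes had medians of -0.02 and -0.07. Of these genes, 3 and 11 were called lower and 0 and 3 higher (5.56% and 25.9% of the list). Their part in the values of POLQ was not tested, and in bulk RNA fewer cells with a transcript cannot be told apart from less of it per cell.

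**Figure D4:**
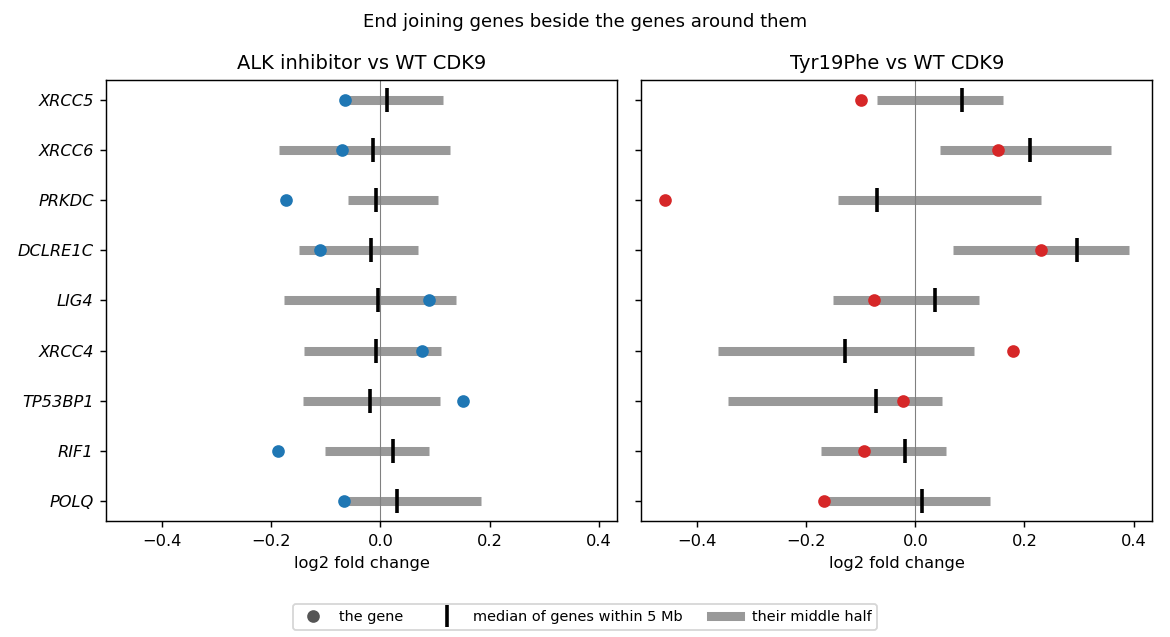
log2 fold change of each tested end joining gene (coloured point) beside the median (black tick) and interquartile range (grey bar) of the tested genes that start within 5 Mb of it, for the ALK inhibitor (left) and Tyr19Phe CDK9 (right). With Tyr19Phe CDK9, PRKDC lies 0.39 below its neighbours' median and XRCC4, which was not called, 0.31 above. These genes, XRCC5 and POLQ lie outside their neighbours' interquartile range. XRCC6, DCLRE1C, LIG4, TP53BP1 and RIF1 lie within theirs.

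Further end joining factors were read from a list of 29 genes, 27 of which were tested. With the ALK inhibitor, 1 was called higher and none lower (3.70% of the list, against 4.55% of all tested genes). Log2 fold changes were above 0 for 21 and below for 6, where 8123 of all 16350 tested genes lay above 0. With Tyr19Phe CDK9, 5 were called higher and 1 lower (22.2% of the list, against 18.0% of all tested genes). Here 19 lay above 0 and 8 below, where 8267 of all 16350 lay above 0. The median log2 fold change of the list was 0.05 in both comparisons. Directly between Tyr19Phe CDK9 and inhibitor-treated cells, 3 were called higher and 0 lower (11.1% of the list, below the 20.7% of all tested genes). DNTT, the template-free polymerase of lymphocytes, had 0 counts in all 9 libraries, where a floor of 3 counts corresponds to 0.102 to 0.165 CPM. TEN1 had at most 2 counts.

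Among the accessory factors of classical end joining, 2 of 9 tested genes rose with Tyr19Phe CDK9 and none fell (22.2% called, against 18.0% of all tested genes). PAXX, which resembles XRCC4 and binds Ku, had 37.5, 39.3 and 36.1 CPM in WT CDK9 cells, 39.1, 43.1 and 34.6 CPM with the inhibitor and 48.9, 52.3 and 43.0 CPM with Tyr19Phe CDK9. The Tyr19Phe CDK9 and WT CDK9 groups did not overlap (0.35 ± 0.09 on the log2 scale, edgeR adjusted p = 0.00478), and PAXX was called in 6 of 6 fits without 1 library. CYREN, a small protein that binds Ku, had 32.0, 31.3 and 29.5 CPM in WT CDK9 cells and 35.2, 38.4 and 38.6 CPM with Tyr19Phe CDK9. It was called higher (0.27 ± 0.09 on the log2 scale, edgeR adjusted p = 0.0334), but of the 6 fits without 1 library it kept the call only in the one without Tyr19Phe CDK9 replicate 1 (adjusted p up to 0.129). Both were also higher in Tyr19Phe CDK9 cells than with the inhibitor (log2 fold changes 0.31 and 0.26, adjusted p = 0.0132 and 0.0387). In that comparison PAXX lost its call without ALK inhibitor replicate 3 or Tyr19Phe CDK9 replicate 2 (adjusted p up to 0.116), and CYREN without replicate 2 or 3 of either group (adjusted p up to 0.133) or without the filter on low counts (adjusted p = 0.0561). POLM, a polymerase that fills gaps at joined ends, was the gene called higher with the inhibitor. It had 10.8, 8.65 and 9.56 CPM in WT CDK9 cells and 13.8, 14.2 and 15.1 CPM with the inhibitor, without overlap. Its log2 fold change was 0.57 ± 0.15 (edgeR adjusted p = 0.0168), and it was called in 3 of 6 fits, not without WT CDK9 replicate 2, WT CDK9 replicate 3 or ALK inhibitor replicate 3 (adjusted p up to 0.0992). In Tyr19Phe CDK9 cells it had 9.88, 12.3 and 11.6 CPM, or 0.22 on the log2 scale from WT CDK9 cells (adjusted p = 0.343).

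In the TP53BP1 axis, which includes shieldin and the CST complex that fills in resected ends, 2 of 13 tested genes rose with Tyr19Phe CDK9 and none fell (15.4% called, below the 18.0% of all tested genes). MDC1, a scaffold that recruits the ubiquitin ligases upstream of TP53BP1, had 68.8, 63.0 and 58.2 CPM in WT CDK9 cells and 71.2, 75.3 and 77.03 CPM with Tyr19Phe CDK9 (0.23 ± 0.07 on the log2 scale, edgeR adjusted p = 0.0193). CTC1 of the CST complex had 11.3, 11.97 and 11.4 CPM in WT CDK9 cells and 18.1, 13.05 and 16.4 CPM with Tyr19Phe CDK9 (0.45 ± 0.16 on the log2 scale, edgeR adjusted p = 0.0435). Neither overlapped between these groups. MDC1 lost its call without WT CDK9 replicate 3 or Tyr19Phe CDK9 replicate 2 or 3 (adjusted p up to 0.139). CTC1 kept its call only in the fit without Tyr19Phe CDK9 replicate 2 (adjusted p up to 0.213 in the other 5), and DESeq2 did not call it (adjusted p = 0.068). CTC1 was also higher than with the inhibitor (log2 fold change 0.45, adjusted p = 0.0404), with overlapping libraries and a call that was lost in 4 of 6 fits, without ALK inhibitor replicate 2 or 3 or Tyr19Phe CDK9 replicate 1 or 3 (adjusted p up to 0.254), and in DESeq2 (adjusted p = 0.0672). With the inhibitor, 0 of the 13 were called by edgeR or DESeq2, where edgeR called 4.55% of all tested genes. An unadjusted p under 0.05 was reached by 2 of them, against 15.1% of all tested genes. A log2 fold change above 0 was found for 11 of the 13, against 8123 of all 16350 tested genes.

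Of 5 partners of polymerase theta, 1 rose and 1 fell with Tyr19Phe CDK9, where 7.61% of all tested genes rose and 10.4% fell. FEN1, a flap nuclease that also acts in replication, had 146, 156 and 147 CPM in WT CDK9 cells and 166, 177 and 159 CPM with Tyr19Phe CDK9 (0.16 ± 0.05 on the log2 scale, edgeR adjusted p = 0.0267). PARP1, the target of PARP inhibitors and a sensor of breaks, had 302, 301 and 307 CPM in WT CDK9 cells and 263, 286 and 284 CPM with Tyr19Phe CDK9 (-0.13 ± 0.04 on the log2 scale, edgeR adjusted p = 0.0368). Neither gene overlapped between these groups. FEN1 lost its call without WT CDK9 replicate 1 or 3 or Tyr19Phe CDK9 replicate 2 (adjusted p up to 0.159), and PARP1 kept its call only without Tyr19Phe CDK9 replicate 2 (adjusted p up to 0.212) and lost it without the filter on low counts (adjusted p = 0.0643). With the inhibitor, 0 of the 5 were called by edgeR or DESeq2, where edgeR called 4.55% of all tested genes. An unadjusted p under 0.05 was reached by 1, PARP1, against 15.1% of all (log2 fold change -0.09, edgeR adjusted p = 0.314).

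**Figure D5:**
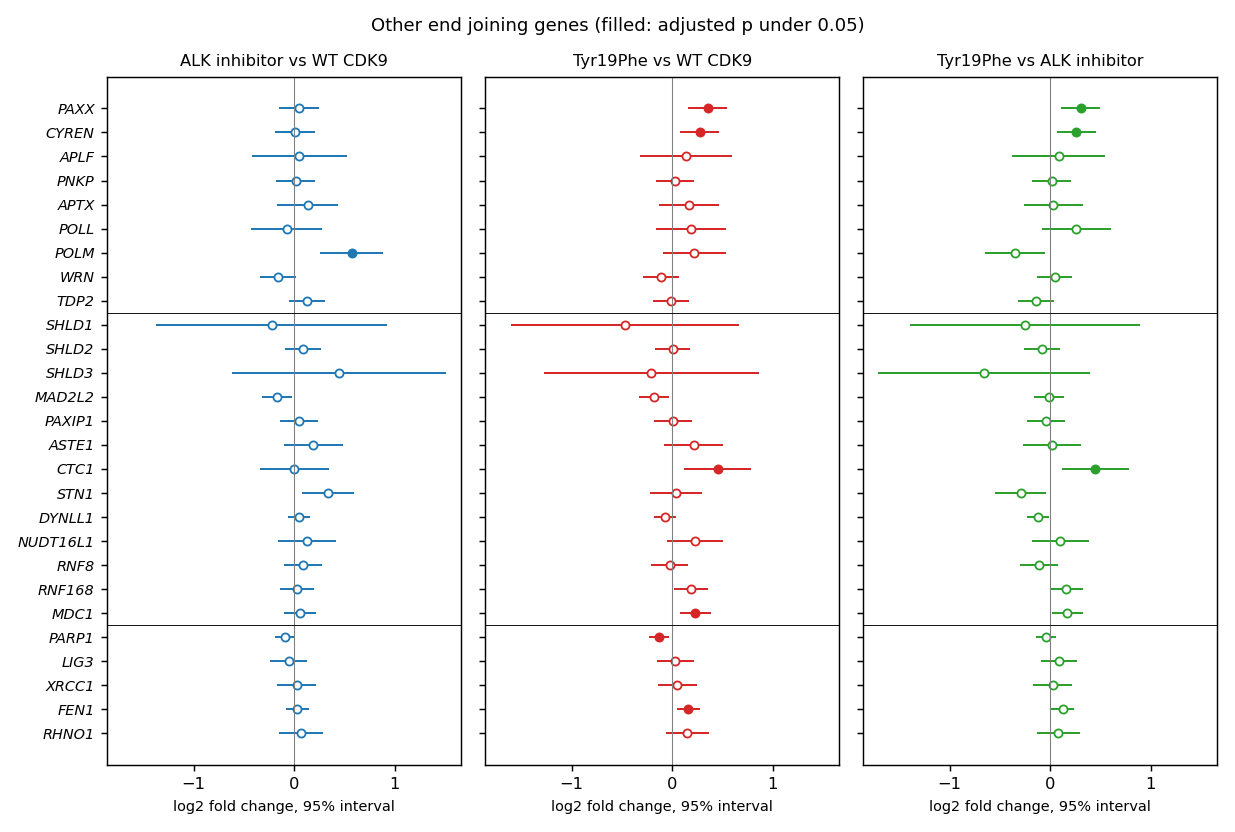
log2 fold changes with 95% intervals of the 27 tested further end joining genes, in the order accessory factors, TP53BP1 axis and polymerase theta partners (lines separate them). Filled points have an adjusted p under 0.05. Of them, 1 lies in the ALK inhibitor comparison, 6 in the Tyr19Phe comparison and 3 in the direct comparison. These are 3.70%, 22.2% and 11.1% of the list, against 4.55%, 18.0% and 20.7% of all tested genes.

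For comparison, 22 genes of homologous recombination were read from the same fit. With the ALK inhibitor 0 were called by edgeR or DESeq2 and 2 had an unadjusted p under 0.05, against 4.55% of all tested genes called by edgeR and 15.1% at that unadjusted p. Their median log2 fold change was -0.04. With Tyr19Phe CDK9, DNA2, a nuclease of long-range resection, was called higher (0.28 ± 0.09 on the log2 scale, edgeR adjusted p = 0.0264), and NBN, a subunit of the MRN complex that senses breaks, was lower (-0.40 ± 0.05 on the log2 scale, edgeR adjusted p = 2.34e-07), with a median of 0.02 over the 22. The 2 calls were 9.09% of the list, below the 18.0% of all tested genes. These genes were named after their values were seen, and whether their calls held without each library is not given here. The counts and medians of the 2 pathways are given side by side, and the difference between them was not tested.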

How the data were processed

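Total RNA of SKOV3 cells was sequenced by a company in 9 libraries. Per the labels and the submitters' processing notes, the authors mapped reads to hg38 (GRCh38) with HISAT2 2.0.5 and counted them with featureCounts 1.5.0-p3. The deposited values are raw counts, whole reads per gene and library without normalization, beside gene identifiers, positions and lengths. Annotation release, strand setting and treatment of reads that fit several genes are not given in the sources used here. The counts were tested with edgeR 4.0.16 in R 4.3.3. Genes passed filterByExpr (minimum count 10, minimum total 15), libraries were scaled by TMM, and all 9 libraries entered one quasi-likelihood fit with a mean for each group (6 residual degrees of freedom). P-values were adjusted over the 16350 tested genes by the Benjamini-Hochberg method, with calls under 0.05. Ratios were compared by a two-sided exact permutation test. CPM values used library totals times TMM factors. Gene positions were compared with GENCODE 44, where all 10 genes lay on the same chromosome.

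Named genes were the 10 members and, from the list of further factors, those called in a comparison or not tested. The members and lists were chosen with earlier results of these data known. S phase genes followed the Seurat package. Alternatives were DESeq2 1.42.0, its size factors, no filter, a replicate block, the compared groups alone, an unadjusted p, and each library left out. The canonical transcript length was added after the data were seen. The code was tested on simulated data. Intervals and floors of 3 counts cover counting error or the spread between libraries only.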

Additional observations from a re-analysis of the deposited data

Results flagged for a closer look

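The effects of the ALK inhibitor and of Tyr19Phe CDK9, each against the same WT CDK9 libraries, differed for 3 of the 9 tested end joining genes when the 2 conditions were compared directly with edgeR's quasi-likelihood test, where 20.7% of all tested genes were called. XRCC6 was higher with Tyr19Phe CDK9 than with the inhibitor, by 0.22 on the log2 scale (adjusted p = 2.82e-05), in all 3 libraries. PRKDC had a log2 difference of -0.29 (adjusted p = 1.79e-06) and TP53BP1 of -0.17 (adjusted p = 0.0121), with all 3 Tyr19Phe CDK9 libraries below all 3 inhibitor libraries. The TP53BP1 difference was not called without ALK inhibitor replicate 3 (log2 difference -0.15, adjusted p = 0.0738).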

How the results depend on the processing

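With the ALK inhibitor, 3 members were called by DESeq2, 2 without a filter, 2 with a replicate block and 3 at an unadjusted p under 0.05, against 1 in the report. Over all genes, DESeq2 called 846 of 12235, against 744 of 16350 in the report. Without a filter it was 788 of 29743, with the block 818 of 16350 and at an unadjusted p 15.1%. Leaving out 1 library gave 0 to 2 members, with 0 without WT CDK9 replicate 1 or ALK inhibitor replicate 3. Calls over all tested genes then fell to between 491 and 608, against 744. The members added were RIF1 and, with DESeq2 and at an unadjusted p, TP53BP1. With Tyr19Phe CDK9 the count of 2 members, and in the direct comparison that of 3, stayed within 1.5 times in every alternative run. Of the further factors, 0 to 1 were called with the inhibitor when 1 library was left out and 4 at an unadjusted p. The range was 1 to 4 with Tyr19Phe CDK9, against 6. In the direct comparison it was 0 to 3, against 3, and an unadjusted p gave 9. Over all genes, fits without 1 library called 2180 to 2623 with Tyr19Phe CDK9, against 2940. In the direct comparison they called 2622 to 2961, against 3387, and 31.5% of all tested genes had an unadjusted p under 0.05. Some uncalled log2 fold changes changed sign when 1 library was left out. With the inhibitor, DCLRE1C ranged from -0.238 to 0.0609, LIG4 from -0.0103 to 0.203, XRCC4 from -0.0129 to 0.154 and POLQ from -0.122 to 0.0258. With Tyr19Phe CDK9, LIG4 ranged from -0.158 to 0.0379. The cause was not tested. Equal replicate numbers did not mark similar libraries (their deviations from the group means correlated by -0.0171 to 0.0668). Whether libraries with equal numbers were handled together is not given in the sources used here. The replicate block added RIF1 with the inhibitor (adjusted p = 0.0454) and changed no other call among the members. Canonical transcript lengths moved 22 of 30 levels per kilobase by more than 1 SD, and library size alone moved 1 of 30. DCLRE1C, LIG4 and XRCC4 had the widest intervals of the tested members, and NHEJ1 could not be fitted.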
